A study of Mus musculus with 10 samples.

Results

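The glutathione system was described in the hippocampus of mice carrying Dp1Rhr, a duplication used to model part of Down syndrome. The genes taken were every glutathione transferase of the alpha, mu, pi, theta, omega, zeta, kappa and microsomal classes, every glutathione peroxidase, the genes of glutathione synthesis and recycling, 2 gamma-glutamyltransferases, Nqo1 and Ephx1, and the regulators Nfe2l2 and Keap1. They were chosen by symbol among probe sets with exactly 1 annotated gene, and the brightest probe set stood for a gene. The choice gave 40 of the 19938 genes tested. Prdx6, which the choice also named, was not found under a single symbol and was not analysed here. Nor were 6 probe sets annotated to several genes, a member among them.

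RNA of the whole hippocampus, left and right, was measured on 1 array per mouse in 5 Dp1Rhr and 5 control males aged 16 weeks. Dp1Rhr is a tandem duplication of chromosome 16 from Cbr1 to Fam3b, so that genes in between are present in 3 copies, and 0 of the 40 members lie on that chromosome. The control mice were wild-type littermates out of 1 breeding in which Dp5Yah carriers were mated with Dp1Rhr carriers, and the Dp5Yah and double carriers of that breeding were not analysed here. The labels give the background as C57BL/6N, whereas the methods of the study name C57BL/6J. The labels call the mice biological replicates and do not tie them to litters.

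Glutathione is a small peptide that keeps cells reduced. Glutamate-cysteine ligase and glutathione synthetase make it, peroxidases spend it on hydrogen peroxide and lipid peroxides, and glutathione reductase restores it. Glutathione transferases join it to reactive compounds such as the aldehydes of oxidised lipids. In brain the peptide is made and exported mainly by astrocytes, and the transcription factor NRF2, encoded by Nfe2l2 and held in check by Keap1, drives many of these genes through the antioxidant response element.

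Because that element links several members, the promoter windows of the members were searched for its core, TGACNNNGC, on both strands. RefSeq windows on GRCm38.p6, which run from 250 bases before to 50 bases after a start site, were at hand for 35 of the 40 members, and those of Gclc, Ggt5, Gsr, Gsta4 and Gstt2 were not. The core stood in windows of 6 of the 35, beside 14% of the 27025 genes in the table and 12.4% of its 32851 windows. The 30 bases around each match are printed on the strand of the core, with the core in capitals. Sequence outside the windows was not searched, so a member without a match is not shown to lack the core. No printed stretch also held TGANTCA, the AP-1 motif.
Nfe2l2: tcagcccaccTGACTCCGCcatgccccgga
Mgst1: accccgcctccTGACCGTGCcaagccccgc
Gstm7: tctgaagaccTGACAAAGCgaagccaatcc
Gstm5: caccgcccacTGACCACGCggagggcgggt
Gclm: ctcgtgagagtTGACGGTGCgcccgggagc
Gsta3: aactcaggcaTGACATTGCatttttcttct
The Nfe2l2 stretch lies at chr2:75704884-75704913 (minus strand), Mgst1 at chr6:138140461-138140490 (minus), Gstm7 at chr3:107931724-107931753 (minus), Gstm5 at chr3:107895802-107895831 (plus), Gclm at chr3:122245413-122245442 (minus) and Gsta3 at chr1:21240454-21240483 (plus). A match is a string of letters in the window and not a shown binding site. The log2 fold changes of the 6 genes ran from 0.04 for Gsta3 to 0.56 for Mgst1, and 0 of them passed the test described next.

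Values are the deposited log2 levels, and a log2 fold change is the Dp1Rhr mean minus the control mean. A gene was said to rise or fall where limma gave an adjusted p below 0.05, with Benjamini-Hochberg adjustment over all genes. Of the 40 members 2 rose in Dp1Rhr, the transferase Gstt1 and the epoxide hydrolase Ephx1, and 0 fell. Over all genes 0.802% passed, 0.627% higher and 0.176% lower. FCROS, the ranking of fold changes used in the study, put 14 members in its upper tail and 0 in its lower one, where 3.4% and 1.99% of all genes lay. The log2 fold change was above 0 for 32 members and below 0 for 8, and for 36 and 4 after a second quantile normalization, where Gstt4, Mgst2, Gpx5 and Gpx6 changed sign. It was above 0 for 49.9% of all genes. The median over the members was 0.12, from -0.04 for Ggt7 to 0.74 for Gpx8, and the median over all genes was 0.00. An unadjusted p under 0.05 was met by 26 members in the upward direction and by 0 in the downward one, where 8.55% and 6.44% of all genes met it. For 7 members (Gstt1, Gstt3, Gstm1, Gstm7, Gpx3, Gclm and Ggt5) every Dp1Rhr array lay above every control array, which held for 1.82% of all genes, and for 0 members every Dp1Rhr array lay below, which held for 1.7%.

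**Figure D1:**
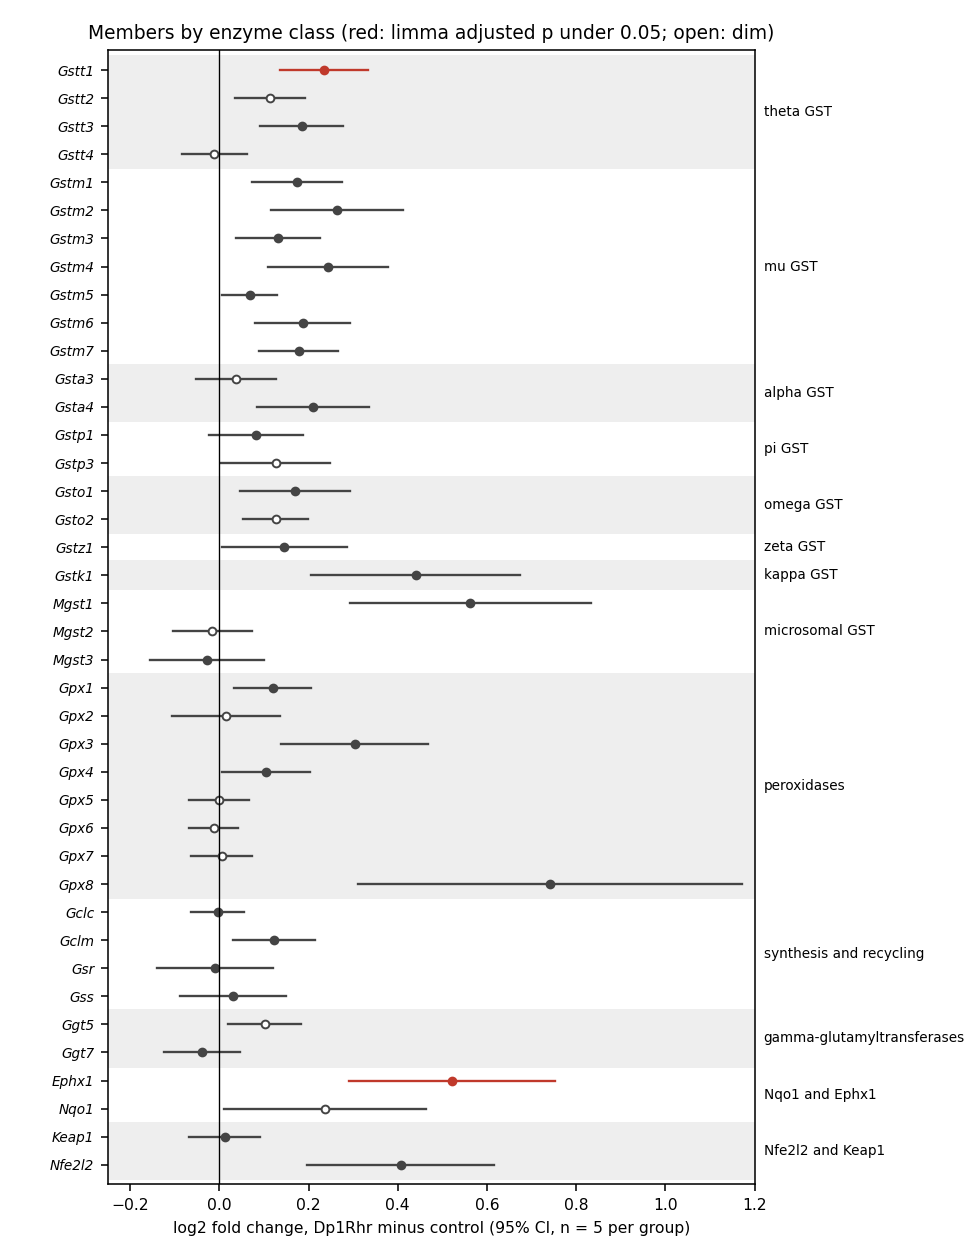
Each row is a member, grouped by enzyme class, and the x axis is its log2 fold change, Dp1Rhr minus control, with the 95% confidence interval of the limma fit (n = 5 arrays per group). Gstt1 and Ephx1, in red, passed the test. Open points mark the 12 members below the 40th percentile of mean level. Most intervals of the transferases lie right of 0, while those of Gclc, Gss and Gsr include it.

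A check of the tissue and the labels came first. Dyrk1a, a kinase gene inside the duplication, was at 11.65 to 11.80 in the control arrays and 11.97 to 12.06 in the Dp1Rhr arrays, so the groups did not overlap (log2 fold change 0.27 ± 0.03 SE, limma adjusted p = 0.011). Cbr3, at the proximal end, rose by 0.36 (adjusted p = 0.021), and Cbr1 was at 0.04 (adjusted p = 0.854). All 12 of the hippocampal neuron markers listed were measured, with list means of 10.67 to 10.74 in control and 10.68 to 10.71 in Dp1Rhr. Their median log2 fold change was -0.04, with 4 above 0, 8 below 0 and 0 called. Array medians ran from 6.77 to 6.83 and arrays correlated at 0.9956 to 0.9981. Control replicates 2 and 3 stood apart in markers of the choroid plexus, the epithelium that makes cerebrospinal fluid. Its secreted transthyretin, Ttr, was at 9.53 and 9.83 in them and at 13.21 or more in the other 8 arrays.

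The theta transferases lie side by side on chromosome 10 (chr10:75774117-75837419, GRCm38). They act on small halogenated compounds and other electrophiles. The first gene that rose, Gstt1, was at 8.49, 8.44, 8.37, 8.33 and 8.31 in the control arrays and at 8.66, 8.72, 8.54, 8.62 and 8.57 in the Dp1Rhr arrays. All Dp1Rhr arrays were above all control arrays, and the lowest of them, replicate 3, was close to the highest control, replicate 1. The rise was 1.18-fold, or 0.23 ± 0.05 (SE) on the log2 scale with 5 arrays in each group (limma adjusted p = 0.0434). Leaving out 1 array kept the log2 fold change between 0.21 and 0.26, but the adjusted p stayed below the threshold only without control replicate 1, Dp1Rhr replicate 3 or Dp1Rhr replicate 5, and reached 0.132 without Dp1Rhr replicate 1.

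Its neighbour Gstt3 was at 7.16, 6.92, 7.09, 6.99 and 7.03 in control and at 7.21, 7.17, 7.25, 7.26 and 7.22 in Dp1Rhr. These groups also kept apart, narrowly so between control replicate 1 and Dp1Rhr replicate 2 (0.18 ± 0.04 SE, adjusted p = 0.0731). Without control replicate 1 the adjusted p was 0.0389. In the other 9 fits with 1 array left out it was above the threshold, up to 0.176. Gstt2, which lay just below the 40th percentile of level, was at 6.80, 6.68, 6.66, 6.70 and 6.78 in control and at 6.82, 6.84, 6.90, 6.79 and 6.85 in Dp1Rhr (0.11 ± 0.04 SE, adjusted p = 0.155). Control replicate 1 reached into the Dp1Rhr range, which was the only overlap. Gstt4 was dim and stood at -0.01, a sign that turned under the second quantile normalization.

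The mu transferases form the other cluster, 7 genes in the order Gstm5, Gstm7, Gstm6, Gstm3, Gstm2, Gstm1 and Gstm4 (chr3:107895854-108045179). Mu enzymes conjugate a wide range of electrophiles, and Gstm1 is known as an astrocyte enzyme in the brain. The 7 genes are near copies of each other, and whether their probe sets share signal was not tested. All 7 had a log2 fold change above 0, from 0.07 for Gstm5 to 0.26 for Gstm2 with a median of 0.18, all 7 had an unadjusted p under 0.05, and 0 passed the adjusted test.

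Gstm7, one of the genes with the core motif, was at 10.36, 10.23, 10.40, 10.38 and 10.41 in control and at 10.58, 10.59, 10.47, 10.56 and 10.47 in Dp1Rhr. The groups did not overlap, and control replicate 2 was lowest (0.18 ± 0.04 SE, adjusted p = 0.0725). Gstm1 was at 11.82, 11.89, 11.97, 11.90 and 11.97 in control and at 12.18, 12.11, 12.00, 12.15 and 11.98 in Dp1Rhr (0.17 ± 0.05 SE, adjusted p = 0.0975). Dp1Rhr replicates 3 and 5 lay barely over the control arrays, and the other 3 well over them. Gstm4 was at 9.56, 9.47, 9.67, 9.42 and 9.46 in control and at 9.93, 9.77, 9.60, 9.78 and 9.72 in Dp1Rhr (0.24 ± 0.06 SE, adjusted p = 0.0858). Here too Dp1Rhr replicate 3 was the lowest of its group and fell within the control range.

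Gstm6 was at 8.22, 8.26, 8.31, 8.21 and 8.08 in control and at 8.47, 8.37, 8.36, 8.50 and 8.31 in Dp1Rhr (0.19 ± 0.05 SE, adjusted p = 0.0952). The groups met at control replicate 3 and Dp1Rhr replicate 5. Gstm2 was at 7.31, 7.06, 6.99, 7.32 and 7.19 in control and at 7.42, 7.51, 7.53, 7.30 and 7.42 in Dp1Rhr (0.26 ± 0.07 SE, adjusted p = 0.0901). Its control arrays were uneven, with replicates 1 and 4 at the level of Dp1Rhr replicate 4, and without control replicates 2 and 3 the log2 fold change was 0.16. Gstm3 stood at 0.13 by the probe set used, which had a mean level of 10.13. Its other probe set gave 0.15 at a mean level of 6.65, below the 40th percentile of 6.82. By its number, this other probe set falls between those of the neighbours Gstm6 and Gstm2. The one used is numbered near a probe set of Gpx4, a gene of chromosome 10. The place of Gstm3 among the brighter members thus rests on a probe set numbered away from the mu cluster. Which probe set reads the gene better was not tested. Gstm5 stood at 0.07.

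**Figure D2:**
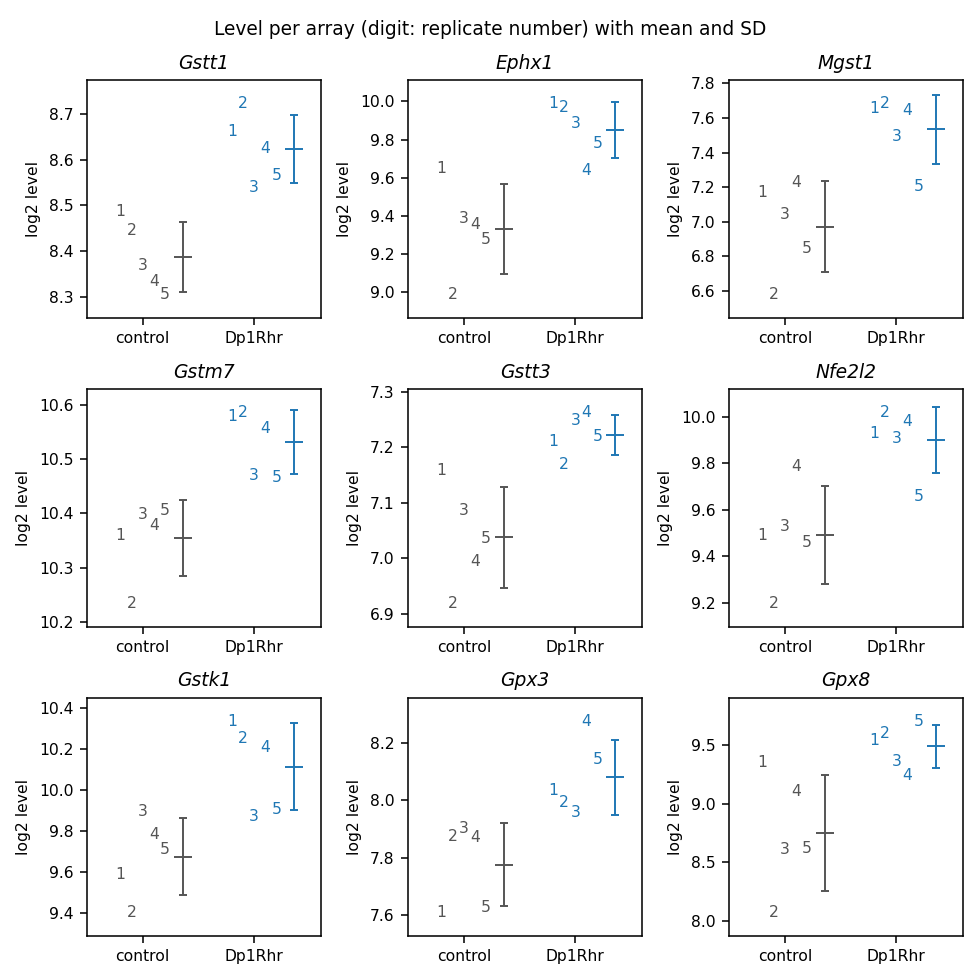
Each panel is a gene, the y axis is its log2 level and each digit is an array, named by its replicate number, with the group mean and SD (n = 5) beside it. Gstt1, Gstm7, Gstt3 and Gpx3 show no overlap of the groups. Control replicate 2 is the lowest array for Ephx1, Mgst1, Gstm7, Gstt3, Nfe2l2, Gstk1 and Gpx8. The y axes differ and do not start at 0.

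Among the alpha and pi transferases, Gsta4, which clears the lipid aldehyde 4-hydroxynonenal, was at 9.76, 9.51, 9.69, 9.63 and 9.58 in control and at 9.95, 9.80, 9.71, 9.95 and 9.80 in Dp1Rhr. Only control replicate 1 reached past the lowest Dp1Rhr array (0.21 ± 0.06 SE, adjusted p = 0.109). Gsta3 was dim and stood at 0.04. Gstp3, also dim, was at 5.55, 5.53, 5.56, 5.52 and 5.60 in control and at 5.60, 5.50, 5.85, 5.70 and 5.74 in Dp1Rhr, with Dp1Rhr replicate 2 the lowest of all arrays and the other 4 above every control, replicate 1 barely so (0.13 ± 0.06 SE, adjusted p = 0.312). Gstp1, the pi enzyme widely found in brain, stood at 0.08 with a 95% confidence interval of -0.02 to 0.19.

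The omega enzymes reduce dehydroascorbate, and Gstz1 takes part in tyrosine breakdown. Gsto2, again dim, was at 5.99, 5.98, 6.05, 5.96 and 6.01 in control and at 6.14, 6.13, 6.15, 6.17 and 6.02 in Dp1Rhr. Dp1Rhr replicate 5 alone fell among the controls (0.13 ± 0.03 SE, adjusted p = 0.0988), and without it the adjusted p was 0.0366. Leaving out any other single array (9 fits) kept the adjusted p above the threshold, up to 0.239. Gsto1 stood at 0.17. Gstz1 was at 8.86, 8.92, 8.84, 8.63 and 8.71 in control and at 8.92, 9.11, 8.81, 8.89 and 8.97 in Dp1Rhr, with much overlap (0.15 ± 0.06 SE, adjusted p = 0.312).

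The kappa enzyme Gstk1 sits in mitochondria and peroxisomes. It was at 9.59, 9.40, 9.90, 9.78 and 9.71 in control and at 10.34, 10.25, 9.87, 10.21 and 9.91 in Dp1Rhr. Dp1Rhr replicates 1, 2 and 4 were high, whereas replicates 3 and 5 lay beside control replicate 3 (0.44 ± 0.11 SE, adjusted p = 0.0818).

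The microsomal enzymes are membrane proteins, of which Mgst1 also reduces lipid peroxides and Mgst2 and Mgst3 are known for work on leukotrienes. Mgst1 was at 7.17, 6.58, 7.04, 7.23 and 6.85 in control and at 7.65, 7.68, 7.49, 7.64 and 7.20 in Dp1Rhr. Control replicate 2 was low, and Dp1Rhr replicate 5 fell just below control replicate 4, the one overlap. The log2 fold change was 0.56 ± 0.12 SE (adjusted p = 0.0652), and the adjusted p was 0.0273 without Dp1Rhr replicate 5. It was above the threshold in the other 9 fits with 1 array left out, up to 0.176. Mgst3 was at -0.03 and Mgst2 at -0.02, with 95% confidence intervals of -0.16 to 0.10 and -0.10 to 0.07, and the sign of Mgst2 turned under the second quantile normalization. Mgst1 thus had the higher log2 fold change of the class, but the difference between the 3 genes was not tested.

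Of the 22 transferases together, 19 had a log2 fold change above 0, with a median of 0.16, and 17 had an unadjusted p under 0.05 in that direction. Over all genes 49.9% and 8.55% did so.

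The 8 peroxidases were uneven, with a median of 0.06 and 6 above 0. Gpx5 and Gpx6, below 0 at -0.00 and -0.01, were above it after the second quantile normalization. Gpx3, the form secreted into plasma and fluids, was at 7.61, 7.87, 7.90, 7.87 and 7.63 in control and at 8.03, 7.99, 7.96, 8.28 and 8.14 in Dp1Rhr. The groups did not overlap, and control replicates 1 and 5 were low (0.30 ± 0.08 SE, adjusted p = 0.0843). Gpx8, a peroxidase of the endoplasmic reticulum membrane, was at 9.35, 8.07, 8.60, 9.10 and 8.62 in control and at 9.54, 9.60, 9.36, 9.24 and 9.71 in Dp1Rhr. Its control arrays ran over more than a log2 unit, and control replicate 1 reached above Dp1Rhr replicate 4 (0.74 ± 0.20 SE, adjusted p = 0.0988). Without control replicate 1 the adjusted p was 0.0484, and with any other single array left out (9 fits) it was above the threshold, up to 0.229.

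The peroxidases that most cells use had smaller log2 fold changes, none past the test. Gpx1, the cytosolic enzyme, was at 10.13 to 10.27 in control and 10.21 to 10.37 in Dp1Rhr, a log2 fold change of 0.12 (adjusted p = 0.169). Gpx4, which reduces lipid peroxides in membranes and guards against ferroptosis, was at 10.39 to 10.49 and 10.40 to 10.64, a log2 fold change of 0.10 (adjusted p = 0.296), and its other probe set gave 0.11. The groups overlapped for both genes. Gpx2, Gpx7, Gpx5 and Gpx6, which are known from gut, endoplasmic reticulum, epididymis and olfactory tissue, were all below the 40th percentile of level here and lay between -0.01 and 0.01.

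**Figure D3:**
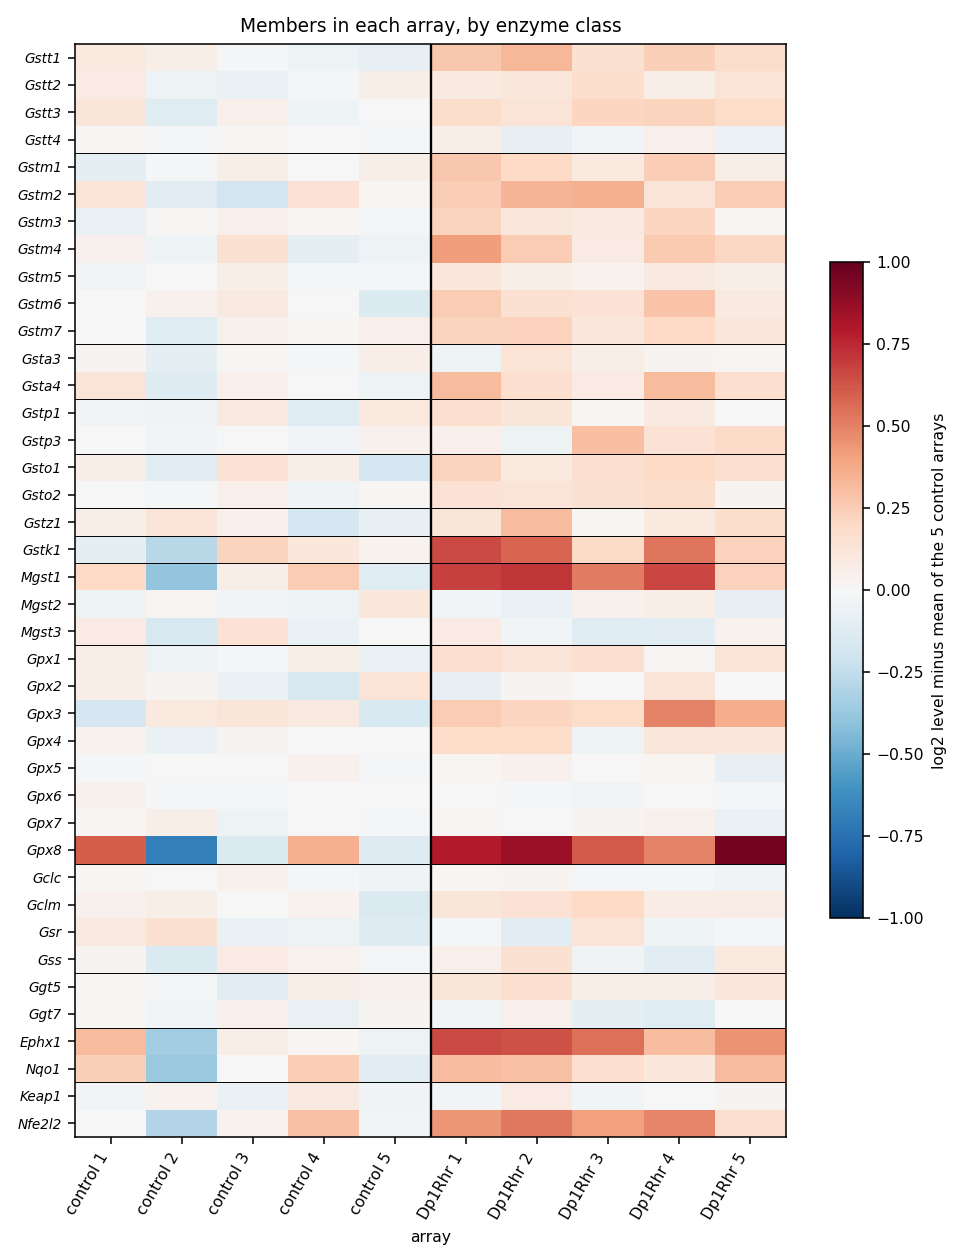
Rows are the 40 members by enzyme class, columns the 10 arrays, and colour the log2 level minus the mean of the 5 control arrays (red higher, blue lower). The Dp1Rhr columns are mostly red through the mu and theta transferases. Gclc, Gss and Gsr show no such block, and Gpx8, Mgst1 and Ephx1 are blue in control replicate 2.

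Synthesis and recycling showed smaller values. Glutamate-cysteine ligase, the rate-limiting enzyme, has a catalytic subunit, Gclc, and a modifier, Gclm. Gclm was at 10.39, 10.41, 10.35, 10.38 and 10.21 in control and at 10.47, 10.50, 10.55, 10.42 and 10.43 in Dp1Rhr. The groups did not overlap, though control replicates 1 and 2 and Dp1Rhr replicates 4 and 5 were close, and control replicate 5 was low (0.12 ± 0.04 SE, adjusted p = 0.184). Gclc was at 10.31 to 10.38 in control and 10.31 to 10.36 in Dp1Rhr, and its log2 fold change of -0.00 had a 95% confidence interval of -0.06 to 0.05. Glutathione synthetase, Gss, stood at 0.03 (-0.09 to 0.15) and glutathione reductase, Gsr, at -0.01 (-0.14 to 0.12). These intervals run up to 0.15 in Gss, 0.12 in Gsr and 0.05 in Gclc, and down to -0.09, -0.14 and -0.06.

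Gamma-glutamyltransferases open the breakdown of glutathione outside the cell, and Ggt5 acts on the leukotriene conjugate. Ggt5 was at 6.68, 6.65, 6.55, 6.71 and 6.70 in control and at 6.78, 6.82, 6.72, 6.72 and 6.77 in Dp1Rhr. It was dim, and the groups were separated by a narrow gap (0.10 ± 0.04 SE, adjusted p = 0.216). Ggt7, a member of the family known from brain, was at -0.04 (-0.12 to 0.05).

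The second gene that rose was Ephx1, the microsomal epoxide hydrolase, which opens reactive epoxides and often acts beside the transferases. It was at 9.65, 8.99, 9.39, 9.35 and 9.28 in control and at 9.99, 9.97, 9.88, 9.64 and 9.78 in Dp1Rhr. Control replicate 2 was low, and control replicate 1 lay level with Dp1Rhr replicate 4, so the groups touched. The rise was 1.44-fold, or 0.52 ± 0.11 (SE) on the log2 scale with 5 arrays in each group (limma adjusted p = 0.0494). The call was at the edge of the threshold. It remained without control replicate 1 (adjusted p = 0.0275) and was lost without any other single array, at 0.0514 to 0.148, while the log2 fold change stayed between 0.44 and 0.60. Nqo1, the quinone reductase and a well known NRF2 target, was dim, at 6.12 to 6.73 in control and 6.60 to 6.80 in Dp1Rhr (0.24 ± 0.10 SE, adjusted p = 0.308), and its sign turned with an ependyma score in the model.

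Nfe2l2 itself was at 9.49, 9.20, 9.53, 9.78 and 9.46 in control and at 9.93, 10.02, 9.91, 9.98 and 9.66 in Dp1Rhr. Only control replicate 4 and Dp1Rhr replicate 5 crossed (0.41 ± 0.10 SE, adjusted p = 0.0776). With 1 array left out the adjusted p was 0.0375 at its lowest, and below the threshold without control replicate 4 or Dp1Rhr replicate 5. It was above the threshold in the other 8 fits, up to 0.195. Keap1, which hands the NRF2 protein over for degradation, was at 8.20 to 8.36 in control and 8.24 to 8.35 in Dp1Rhr, a log2 fold change of 0.01 (-0.07 to 0.09). NRF2 is set largely at the protein level, which an array of RNA does not measure.

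The arrays were not alike across the members. Over the 28 members at or above the 40th percentile of level, control replicate 2 was the lowest of the 10 arrays for 11 and control replicate 5 for 6, while Dp1Rhr replicate 1 was the highest for 10 and Dp1Rhr replicate 2 for 7. Averaged over all 40 members, the control arrays lay between -0.08 and 0.05 of the control mean and the Dp1Rhr arrays between 0.12 and 0.19 above it. The median log2 fold change of the 28 brighter members was 0.17, and 24 of them were above 0. That of the 12 dimmer members was 0.03, with 8 above 0.

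Other cell types of the dissected tissue differed between the arrays as well. In whole tissue, more cells of a type and more RNA per cell cannot be told apart. Of 18 choroid plexus markers 16 were measured, and their mean was 7.07 to 8.99 in control and 8.61 to 9.38 in Dp1Rhr, with a median log2 fold change of 0.87, 16 of 16 above 0 and 0 past the test. Control replicates 2 and 3 were at 7.07 and 7.26. The 10 markers of ependyma, the ciliated lining of the ventricles, had a mean of 6.71 to 7.17 in control and 7.22 to 7.52 in Dp1Rhr, which did not overlap. Their median was 0.39, and 3 rose, Spag6l, Cfap61 and Wdr63, which had been put on the list with their change known. No marker can be read as absent on an array, since background sets a floor, and the lowest of the ependyma list had a mean level of 6.30.

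The members differed in how their values went with these markers. Gpx8 was the 1 member whose arrays stood in the same order as the choroid plexus mean within the controls and within the Dp1Rhr group. With the choroid plexus score in the model, its log2 fold change was 0.25 (adjusted p = 0.377), and without control replicates 2 and 3 it was 0.47. Nqo1 went from 0.24 to 0.00 with the score and to 0.11 without those arrays. Ephx1 went to 0.33 with the score (adjusted p = 0.241) and to 0.43 without the arrays (adjusted p = 0.138). Gstt1 held its size, at 0.23 (adjusted p = 0.181) and 0.25 (adjusted p = 0.131), although it lost its call in both fits. Gpx3 was larger in both, at 0.40 and 0.38, and Gstk1 was at 0.41 and 0.42. In each of these fits 0 members passed, with 6 and 5 genes called over all genes.

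**Figure D4:**
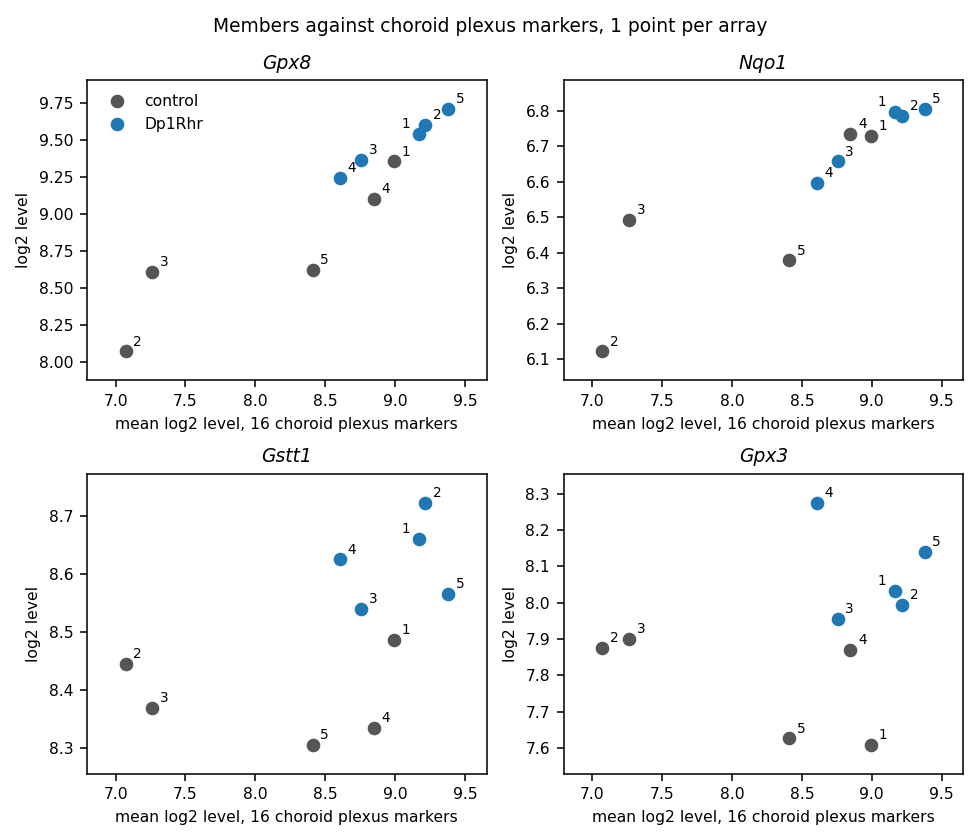
Each point is an array, numbered by replicate, with the mean log2 level of 16 choroid plexus markers on the x axis and the log2 level of the named gene on the y axis. Gpx8 and Nqo1 are lowest in control replicate 2, where the markers are lowest, whereas Gstt1 and Gpx3 are not. Of the 4 genes, Gstt1 and Gpx3 keep all Dp1Rhr points above all control points.

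The other 7 ependyma markers, without the 3 that rose, had a mean of 6.65 to 7.16 in control and 7.13 to 7.48 in Dp1Rhr, a slight overlap. With a score of these 7 in the model, 0 of all genes passed and the median over the members went from 0.12 to 0.09. The score itself ran from -1.76 to 0.14 in control and from 0.06 to 1.40 in Dp1Rhr, so it nearly separated the groups. Score and genotype can then hardly be told apart in this fit, and the SE of Ephx1 grew from 0.105 to 0.155. Lost calls and smaller values in it cannot be assigned to the one or the other. Gstt1 stood at 0.22 and Gpx3 at 0.30, close to their values without the score. Of the 20 members with array values, 9 were smaller by over 1.5 times: Mgst1 at 0.09, Gstk1 at 0.11, Nfe2l2 at 0.03, Ephx1 at 0.31, Gpx8 at 0.31, Gstm1 at 0.11, Gstm2 at 0.17, Gstm7 at 0.06 and Gsta4 at 0.11. Among the others, Gpx4 went from 0.10 to 0.02, and Nqo1 turned from 0.24 to -0.03. With the choroid plexus score 5 of the 20 were smaller by that much, Ephx1, Ggt5, Gpx8, Gstm2 and Gstt2.

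**Figure D5:**
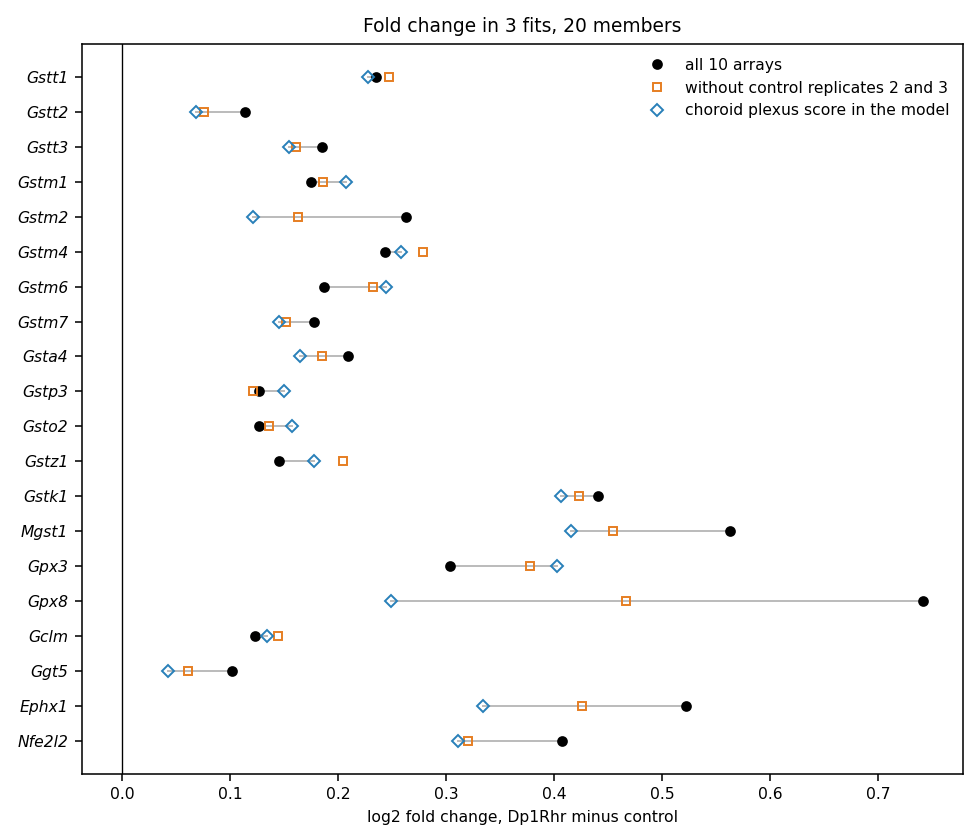
The x axis is the log2 fold change, Dp1Rhr minus control, of the 20 members whose array values are given, in 3 fits: all 10 arrays (black), without control replicates 2 and 3 (orange squares) and with the choroid plexus score in the model (blue diamonds). The grey line joins the first and the last. All 20 values lie above 0 in each fit, and Gpx8 moves farthest, from 0.74 to 0.25.

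Markers of other cells and of neighbouring regions were read in the same way. Oligodendrocyte markers had a mean of 10.80 to 10.97 in control and 10.94 to 11.11 in Dp1Rhr (9 of 10 measured, median 0.14, 0 called). All 9 were above 0, and 5 had an unadjusted p under 0.05. Meningeal markers had a mean of 7.93 to 8.39 and 8.22 to 8.35 (14 of 14, 12 above 0, median 0.11, 1 higher). Markers of astrocytes, the cells known for making glutathione, had a mean of 10.30 to 10.49 and 10.40 to 10.48 (12 of 12, median 0.05, 1 higher and 1 lower). Microglia markers had a mean of 8.75 to 8.82 in control and 8.82 to 8.89 in Dp1Rhr, with every Dp1Rhr array just above every control array (9 of 10 measured, median 0.08, 0 called). Endothelial markers had a mean of 9.03 to 9.21 and 9.14 to 9.24 (9 of 10 measured, median 0.10, 0 called). Of 8 blood markers 2 were measured, with means of 7.02 to 7.28 and 7.31 to 7.63, which did not overlap. Of these 2, Alas2 rose by 0.67, while Slc4a1 was at 0.01 with overlapping groups. The 10 markers of habenula and thalamus had a median of 0.30, 0 called, and means of 7.78 to 8.19 and 7.76 to 8.75. They were uneven, with 9 above 0, up to 1.17 for Chrna3, and Tcf7l2 at -0.86 (adjusted p = 0.0901). The part of all these cell and region markers in the members' values was not tested.

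The other genes of the pathway were taken from a list of 71, of which 66 were measured under a single symbol. None passed the adjusted limma test in either direction. An unadjusted p under 0.05 was met by 12 upward and 1 downward, beside 8.55% and 6.44% of all genes. FCROS put 7 in its upper tail and 1 in its lower one, beside 3.4% and 1.99% of all genes. The median of the 66 was 0.04, and 45 of them were above 0, beside 49.9% of all genes. The peroxiredoxins, which remove peroxide with thioredoxin in place of glutathione, held 3 of the 6 smallest p. Prdx1 averaged 11.18 ± 0.08 over the 5 control arrays and 11.39 ± 0.07 over the 5 Dp1Rhr arrays (mean ± SD), without overlap (0.21 ± 0.05 SE, adjusted p = 0.0644). Prdx4, the secretory pathway form, stood at 0.23 (adjusted p = 0.122) and Prdx3, the mitochondrial form, at 0.20 (adjusted p = 0.147). Ltc4s and Ptges, enzymes that join or use glutathione in the making of leukotriene C4 and prostaglandin E2, stood at 0.39 (adjusted p = 0.104) and 0.23 (adjusted p = 0.161), and the soluble epoxide hydrolase Ephx2 at 0.21 (adjusted p = 0.108).

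By role, the medians of these other genes were 0.14 for the 4 eicosanoid synthases, 0.06 for the 5 NADPH suppliers, 0.06 for the 4 superoxide dismutases and catalase, 0.05 for the 11 thioredoxin and peroxiredoxin genes, 0.05 for the 7 glutaredoxins and thioesterases and 0.02 for the 19 NRF2 cofactors and further NRF2 targets. Breakdown of glutathione (9 genes) had a median of 0.00, conjugate export (4 genes) one of -0.01 and cystine and glutamate uptake (3 genes) one of -0.03. Slc7a11, the cystine carrier that feeds glutathione synthesis and an NRF2 target, had the lowest log2 fold change of the 66, at -0.29, and an adjusted p of 0.229. It was named after its value was seen. Hmox1, another NRF2 target, stood at 0.13 (adjusted p = 0.209) and was named in the same way.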

How the data were processed

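Hippocampal RNA of 5 Dp1Rhr and 5 control mice was hybridised to Affymetrix Mouse Gene 1.0 ST arrays, 1 per mouse. The authors background-corrected, quantile normalized and summarised the scans by RMA and deposited log2 values, so a shift of all genes at once cannot be seen. Besides RMA, the processing notes of the submitters list limma and mm10. Not given in the sources used here were the arrays normalized together, the RMA version and any slide or scan batch.

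The small number of arrays limits the precision. Of 35556 probe sets, 21789 had 1 gene symbol in the platform annotation. The brightest per gene was kept, which left 19938 genes. The groups were compared in limma 3.58.1 (R 4.3.3, lmFit and eBayes, two-sided, Benjamini-Hochberg over all genes), and the procedure was tested on simulated data. The study used FCROS, which calls a near-fixed share of genes, so it was an alternative (trim 0.25, f-values 0.025 and 0.975). The others were a replicate block, leaving out arrays, a second quantile normalization, median centring, a filter at the 40th percentile, other uses of probe sets, array weights, eBayes with trend and robust, and a choroid plexus score. Leaving out control replicates 2 and 3 together and an ependyma score were added after the data were seen.

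Array values are given for members past the threshold, the member of smallest p in each class and those with an unadjusted p under 0.01. Of the other pathway genes, the 6 of smallest p are named. Members, pathway and marker lists were chosen with earlier results of these data known, among them Spag6l, Cfap61, Wdr63, Prelp, Etnppl and Alas2 in the marker lists. Coordinates and promoter sequences are from RefSeq (GRCm38.p6), matched by gene identifier. No set test was run.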

Additional observations from a re-analysis of the deposited data

Results flagged for a closer look

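In each group of 5 arrays, the array farthest out was set against Dixon's critical value of 0.71 for the ratio of its gap to the group's range. Of the 80 groups looked at (40 members, 2 groups each), 4 exceeded it, and chance flags about 1 in 20. Gclm was at 10.21 in control replicate 5, with the nearest control at 10.35 (ratio 0.735). Gstm7 was at 10.23 in control replicate 2, with the nearest control at 10.36 (ratio 0.725). Gstm5 was at 11.30 in control replicate 3, above the nearest control at 11.24 (ratio 0.73). Gpx1 was at 10.21 in Dp1Rhr replicate 4, below the nearest Dp1Rhr array at 10.32 (ratio 0.726).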

How the results depend on the processing

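The 2 members called higher became 0 with the replicate block, with the choroid plexus or ependyma score in the model and without control replicates 2 and 3, became 1 (Gstt1) with every probe set on its own and became 6 with array weights (Ephx1, Gstk1, Gstm4, Gstm7, Gstt1 and Mgst1). FCROS put 14 members in its upper tail, where it put 3.4% of all genes, and 1.99% in its lower one. The 160 genes called over all genes became 4, 6, 0 and 5 in the first 4 of these fits, in that order, 280 with array weights and 1075 with FCROS. Leaving out 1 array gave 0 to 4 members higher, 0 lower, 5 to 284 genes called, and a median of 0.12 to 0.13, which was 0.17 with dim genes left out. Members higher were 4 without control replicate 1 or Dp1Rhr replicate 5, 1 without control replicate 4 or Dp1Rhr replicate 3, and 0 without any other. The 160 genes became 19, 42 and 12 without control replicates 2, 3 and 5, and 5, 10, 12 and 284 without Dp1Rhr replicates 1, 2, 4 and 5. Other pathway genes higher were 1 (Prdx1) with the mean of probe sets, every probe set, trend and robust or array weights, 7 higher and 1 lower with FCROS, and 0 to 2 higher with 1 array left out. The other settings kept both calls.

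The replicate numbers do not pair the mice by any label, and same-numbered arrays deviated together with correlations of 0.124, -0.327, -0.337, -0.0825 and 0.0685, none being an array's best match. With the replicate block Gstt1 had an adjusted p of 0.0988 and Ephx1 of 0.124.

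Some members that did not pass changed sign, most of them near 0 and Nqo1 from 0.24. With the choroid plexus score Gclc was at 0.0050, Gpx5 at 0.0040, Gsr at 0.027, Mgst2 at 0.027, Gss at -0.041 and Keap1 at -0.013. With the ependyma score Gsr was at 0.14, Mgst2 at 0.016, Gss at -0.066, Gsta3 at -0.047, Keap1 at -0.023 and Nqo1 at -0.034. After the second quantile normalization Gpx5 was at 0.015, Gpx6 at 0.0053, Gstt4 at 0.0081 and Mgst2 at 0.0030. Gclc was at 0.0016 with array weights, and without control replicates 2 and 3 Gclc was at 0.0092 and Gsr at 0.020. With 1 array left out, Gclc ran from -0.012 to 0.0072, Gpx2 from -0.025 to 0.048, Gpx5 from -0.011 to 0.019, Gpx7 from -0.0076 to 0.023, Gsr from -0.046 to 0.029, Gss from -0.0033 to 0.067, Gstt4 from -0.030 to 0.0064, Keap1 from -0.0059 to 0.035, Mgst2 from -0.034 to 0.010 and Mgst3 from -0.067 to 0.0084. The cause was not tested.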
